A study of Mus musculus with 12 samples.

Results

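The unfolded protein response is the set of signals by which a cell matches the folding capacity of its endoplasmic reticulum (ER) to the load of secretory and membrane protein. The genes described here are 10 of its sensors and targets, Atf6, Hspa5, Hsp90b1, Ern1, Xbp1, Dnajb9, Eif2ak3, Atf4, Ddit3 and Herpud1, taken by symbol. All 10 were found among the 18278 genes counted in mouse mammary cancer tumourspheres. RNA-seq read counts were obtained for 12 libraries, with 3 replicates in each of 4 groups, the lines LM1 and LM9 and the Nfib KO group of each. The comparison of each Nfib KO group with its parental line asked which transcripts differed when Nfib, which encodes the transcription factor nuclear factor I/B, was targeted.

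LM1 and LM9 are cell lines derived from GFP-sorted cells of lung metastases that arose in immunodeficient NOD/SCID mice. The mice carried mammary tumours of HR1.PB cells, and by their labels all 4 groups share this origin. HR1.PB is the HR1 line, taken from a mouse mammary tumour driven by a mutant PIK3CA transgene under the ubiquitous CAG promoter, to which a doxycycline-inducible piggyBac transposon mutagenesis system was added. The Nfib KO groups are CRISPR-Cas9 edited LM1 or LM9 cells, each a pool of a small number of single-cell clones. Every group was grown as tumourspheres for 6 days, seeded at 10000 cells per mL with EGF and basic FGF at 20 ng/mL each.

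Library totals ran from 29249075 to 37162594 counts, and a member had between 672 and 231815 counts in a library. The mRNA of Nfib was not lower in the libraries labelled Nfib KO, at 228 to 239 CPM (the counts of a gene scaled to the size of its library) against 196 to 241 in LM1, and at 227 to 247 CPM against 120 to 210 in LM9. Gene-level counts do not show a small frameshift, so this does not check the protein, and these groups are called KO-labelled. LM9 replicate 1 stood apart from the other LM9 libraries. Its correlation of log2 CPM was 0.998 with each LM1 library and 0.972 to 0.974 with LM9 replicates 2 and 3, and it lay nearer to LM1 for 9 of the 10 members. The mean chi-square per gene between the counts of 2 libraries, which is near 1 from sampling noise alone, was 2.24 to 5.29 between it and LM1 libraries, 5.34 to 7.72 within LM1, and 145 to 164 between it and LM9 replicates 2 and 3. It was thus as close to LM1 as LM1 replicates were to each other, and whether its label is right is in doubt. Every LM9 value from all libraries carries that doubt. The fit used 1 estimate of the spread of a gene for all groups, so this library also enters the standard errors (SE) in LM1. Without it, the SE in LM1 went from 0.35 to 0.04 for Xbp1 and from 0.14 to 0.03 for Atf4. The log2 changes of the genes in LM9 are therefore also given without LM9 replicate 1. KO-labelled LM1 and KO-labelled LM9 tumourspheres differed little from each other, with a mean chi-square per gene of 1.62 to 5.65 between them and of 1.44 to 4.17 within each group.

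Markers of cell type moved with the knockout label, as did most genes. In the tests below, 81.2% of all genes were called in LM1 and 82.3% in LM9. How many of all genes were higher or lower in every labelled library was not counted. Of 6 mammary epithelial markers counted, 4 were lower in every library labelled Nfib KO than in any parental library, and 1, the basal keratin Krt14, was higher in every one. The 6 together summed to 749 to 1282 CPM in the parental libraries and 6.91 to 7.94 CPM in those labelled Nfib KO, of which Krt14 made up 6.16 to 6.90 CPM. Krt18, an epithelial keratin, averaged 480 CPM in LM1 and 0.0436 CPM in KO-labelled LM1 tumourspheres. Of 6 endothelial markers, Tek and Emcn were not among the genes counted. Of the 4 counted, 3 were higher in every library labelled Nfib KO than in any parental library. The summed level was 0.573 to 2.64 CPM in the parental libraries and 369 to 377 CPM in the labelled ones. Kdr averaged 282 CPM in KO-labelled LM1 and 284 CPM in KO-labelled LM9 tumourspheres. Pecam1, which did not separate, was at 0.327 to 0.555 and 0.243 to 0.415 CPM in the same order. It was at 0.213 to 0.368 CPM in LM1 and at 1.14 to 1.33 CPM in LM9 replicates 2 and 3. Of 8 mesenchymal markers, 6 were higher and 1 lower in every library labelled Nfib KO than in any parental library. Their sum, mostly Vim, was 3251 to 5717 CPM in the parental libraries and 6478 to 6732 CPM in those labelled Nfib KO. Vim was at 5468 to 5543 CPM in LM9 replicates 2 and 3 and at 5158 to 5270 CPM in KO-labelled LM9 tumourspheres, and Dcn averaged 90.7 CPM in LM1 and 11.5 CPM in KO-labelled LM1 tumourspheres. Cd68 was the 1 immune marker of 6 that was counted, at 450 to 554 CPM in the parental libraries and 95.7 to 104 CPM in those labelled Nfib KO, and the 2 lung epithelial markers counted summed to 5.06 CPM or less throughout. With Nfib mRNA not lower, these marker levels and the likeness of the labelled groups leave the identity of the KO-labelled libraries in doubt, and the LM1 and LM9 comparisons may not be 2 independent knockouts. The part of these marker differences in the results below was not tested. In bulk libraries, fewer cells of a type and less RNA per cell cannot be told apart.

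3 membrane proteins sense unfolded protein in the ER lumen. ATF6 is cut by Golgi proteases and releases a transcription factor that raises chaperone genes such as Hspa5 and Hsp90b1. IRE1, the product of Ern1, splices the Xbp1 mRNA into the form that encodes an active transcription factor, and Dnajb9 is a target of that factor. PERK, the product of Eif2ak3, phosphorylates the translation factor eIF2alpha, which lowers general translation while favouring that of ATF4, a factor that in turn induces Ddit3. Herpud1, which encodes an ER membrane protein of the degradation pathway, receives input from more than 1 branch. In cancer cells the pathway is best known for sustaining growth under low oxygen and high secretory load. Gene-level counts do not report ATF6 cleavage, Xbp1 splicing, or phosphorylation of the sensors and eIF2alpha.

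Promoter windows are shown for Hspa5, Hsp90b1 and Herpud1, the members in which the searched motifs of the pathway were found. Each window holds the 250 bases before the RefSeq gene start on GRCm38.p6, 5′ to 3′ on the gene's strand, and RefSeq entries were matched for 9 of the 10 members, all but Atf6. Capitals mark matches on either strand to the ER stress response element (ERSE, CCAAT and CCACG 9 bases apart), to ERSE-II (ATTGG and CCACG 1 base apart), to the ATF6 core TGACGTG, or to TGATGCAA, a C/EBP-ATF element.
Hspa5, chr2:34771840-34772089, plus strand: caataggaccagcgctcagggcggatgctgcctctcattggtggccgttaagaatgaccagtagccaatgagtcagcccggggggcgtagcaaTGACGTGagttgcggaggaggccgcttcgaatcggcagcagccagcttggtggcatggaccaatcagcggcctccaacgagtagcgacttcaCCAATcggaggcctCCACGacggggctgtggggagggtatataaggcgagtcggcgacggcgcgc
Hsp90b1, chr10:86705445-86705694, minus strand: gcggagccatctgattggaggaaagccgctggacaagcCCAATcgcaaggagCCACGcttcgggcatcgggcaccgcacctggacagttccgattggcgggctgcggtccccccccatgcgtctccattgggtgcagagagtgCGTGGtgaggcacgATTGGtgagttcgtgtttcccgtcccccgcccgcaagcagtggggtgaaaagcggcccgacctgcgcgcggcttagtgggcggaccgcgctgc
Herpud1, chr8:94386179-94386428, plus strand: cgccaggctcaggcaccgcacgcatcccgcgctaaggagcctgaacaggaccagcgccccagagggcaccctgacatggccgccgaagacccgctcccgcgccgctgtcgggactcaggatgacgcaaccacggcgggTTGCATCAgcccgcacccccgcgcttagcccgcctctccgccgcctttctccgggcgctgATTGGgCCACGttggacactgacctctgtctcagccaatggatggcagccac

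The Hspa5 window held 1 ERSE, from position -65 to -47 relative to the start, and 1 TGACGTG from -157 to -151. The Hsp90b1 window held 2 ERSE, at -212 to -194 on the gene's strand and at -107 to -89 on the other strand. The Herpud1 window held 1 ERSE-II at -52 to -42, and TGATGCAA on the other strand at -112 to -105. ERSE was found in 0.113% of the 32851 promoter windows in the RefSeq table, ERSE-II in 0.0304%, TGACGTG in 1.65% and TGATGCAA in 0.791%. None of the 4 motifs was found in the same window of Ern1, Xbp1, Dnajb9, Eif2ak3, Atf4 or Ddit3. A match is a description of these letters and not evidence of binding.

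The 10 genes did not move as a block. In KO-labelled LM1 tumourspheres, 9 of 10 members differed from LM1 at an adjusted p under 0.05 in limma-voom, 4 higher and 5 lower. In the LM9 comparison 8 of 10 differed, 4 higher and 4 lower. The 3 members of the ATF6 branch were lower in both comparisons, while the IRE1 branch was split between higher Ern1 and Dnajb9 and lower Xbp1, and Atf4 of the PERK branch was higher. These counts stand against a background in which 81.2% of the 18176 genes tested were called in LM1, 43.1% higher and 38.1% lower. In LM9 82.3% were called, 44.3% higher and 38% lower, so the number of members called is near that of genes at large. Without LM9 replicate 1, 9 of 10 members were called in the LM9 comparison against 88.9% of all genes. With trimmed-mean (TMM) scaling all genes had a median log2 change of 0.08 in LM1 and 0.13 in LM9. Scaling by total counts moved these medians to 0.31 and 0.49. Member changes are to be read relative to that shift.

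**Figure D1:**
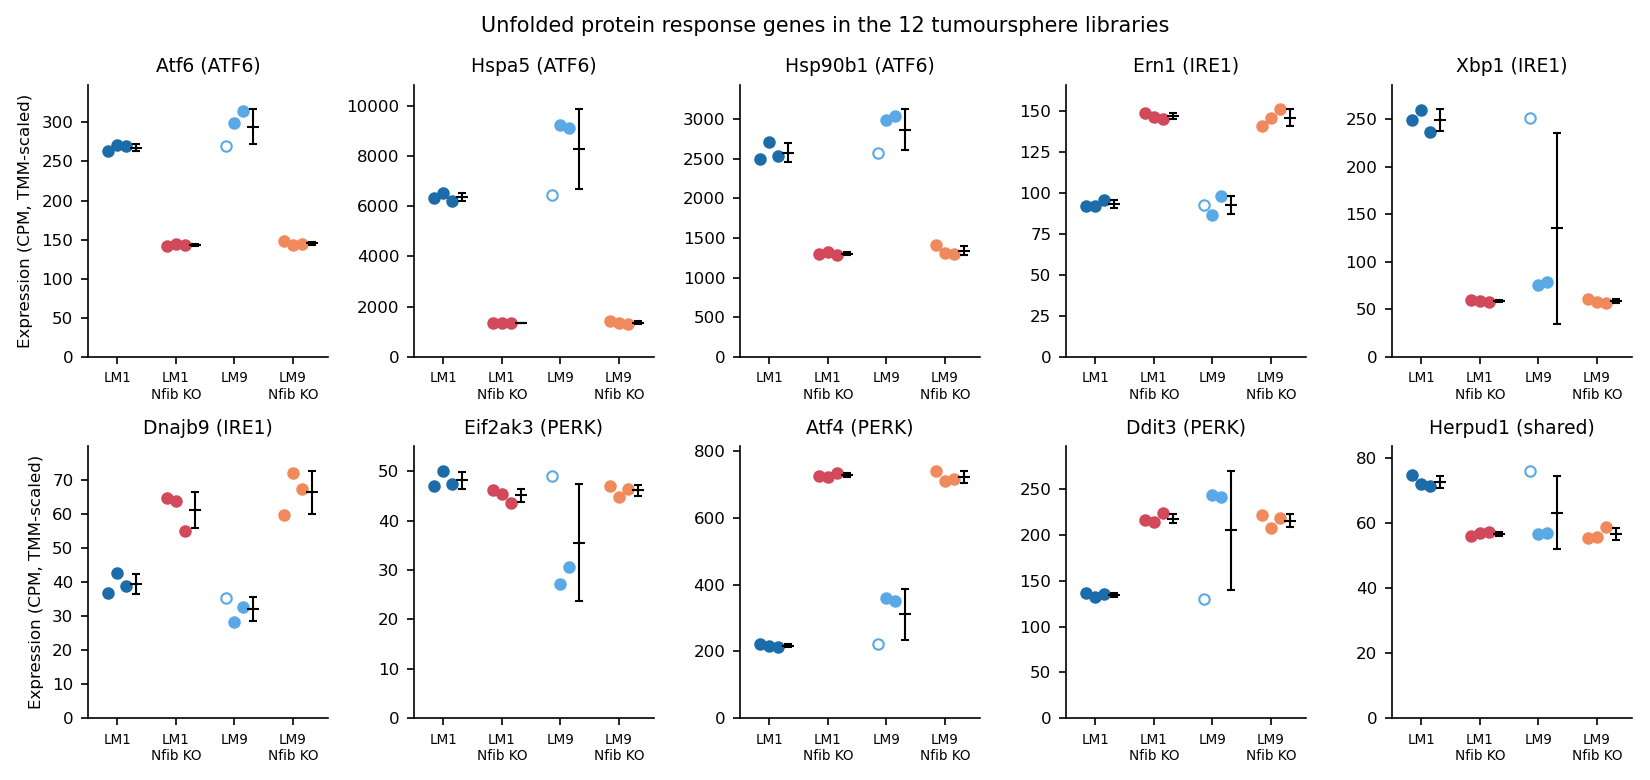
Expression of the 10 genes in the 12 libraries, in CPM after TMM scaling (linear axes from 0), with 1 point per library and the group mean ± SD beside the points. The open symbol is LM9 replicate 1, and each title gives the branch. The Hspa5 points of the libraries labelled Nfib KO sit between 1322 and 1419 CPM, all below the parental points.

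Atf6 (ENSMUSG00000026663; mm10 chr1:170704674-170867771, minus strand, protein coding) encodes the sensor of its branch. Its level in replicate order was 263, 271 and 269 CPM in LM1 and 142, 144 and 143 CPM in KO-labelled LM1 tumourspheres. In LM9 it was 270, 299 and 314 CPM, and in KO-labelled LM9 tumourspheres 148, 143 and 145 CPM. The labelled libraries were all low, with no overlap with the parental ones. The log2 fold change was -0.91 ± 0.06 (SE, n = 3 per group, limma-voom adjusted p = 4.74e-08) in LM1 and -1.02 ± 0.06 (adjusted p = 1.71e-08) in LM9, or -1.08 without LM9 replicate 1.

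Hspa5 (ENSMUSG00000026864; chr2:34771970-34777547, plus strand, protein coding) encodes BiP, the Hsp70 chaperone of the ER lumen that also holds the sensors inactive. It was measured at 6336, 6528 and 6214 CPM in LM1, and at 1334, 1346 and 1349 CPM in KO-labelled LM1 tumourspheres. In LM9 the values were 6426, 9233 and 9124 CPM, against 1419, 1340 and 1322 CPM in KO-labelled LM9 tumourspheres. Every parental library was high and LM9 replicates 2 and 3 were the highest, while the 6 labelled libraries lay close together. Hspa5 fell by 2.24 ± 0.11 on the log2 scale in LM1 (SE, n = 3 per group, limma-voom adjusted p = 5.23e-09). In LM9 it fell by 2.58 ± 0.11 (adjusted p = 1.66e-09), or by 2.75 without LM9 replicate 1. These were the largest falls among the 10 genes in both comparisons.

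Hsp90b1 (ENSMUSG00000020048; chr10:86690209-86705509, minus strand, protein coding) encodes GRP94, the Hsp90 chaperone of the ER. Its levels were 2491, 2707 and 2531 CPM in LM1, 1301, 1323 and 1285 CPM in KO-labelled LM1 tumourspheres, 2567, 2991 and 3036 CPM in LM9, and 1408, 1314 and 1300 CPM in KO-labelled LM9 tumourspheres. The groups did not overlap, and the fall was smaller than that of Hspa5. The log2 fold change was -0.98 ± 0.07 in LM1 (SE, n = 3 per group, limma-voom adjusted p = 1.15e-07) and -1.09 ± 0.07 in LM9 (adjusted p = 4.5e-08), or -1.17 without LM9 replicate 1. Exons of Hsp90b1 overlap those of 3 other annotated genes, among them 1810014B01Rik on the opposite strand over 415 bases, and whether the counting used strand was not stated.

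**Figure D2:**
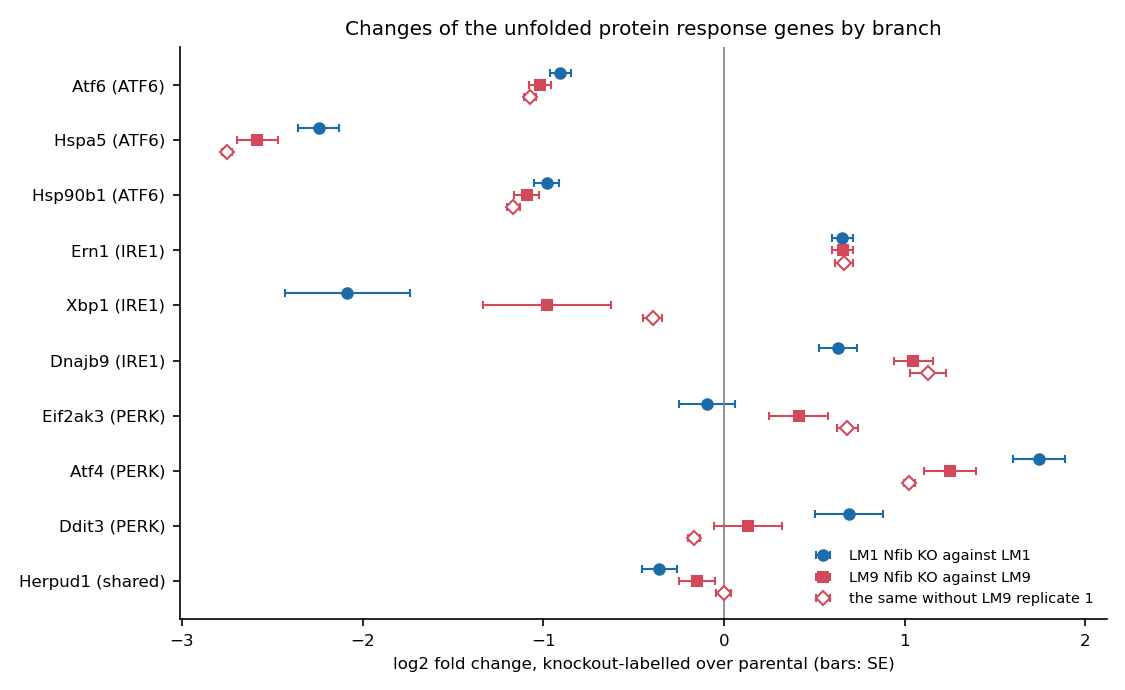
Log2 fold change of each gene in the libraries labelled Nfib KO over their parental line, with its SE as a bar, for LM1 (circles), LM9 (squares) and LM9 without replicate 1 (open diamonds), grouped by branch. The 3 ATF6 genes lie left of 0 in every comparison, Ern1 and Dnajb9 lie right of it, and Ddit3 lies at 0.69 in LM1 and at -0.17 in LM9 without replicate 1.

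Ern1 (ENSMUSG00000020715; chr11:106394650-106487852, minus strand, protein coding) encodes the kinase and endoribonuclease IRE1alpha. It was at 91.7, 92.0 and 95.8 CPM in LM1 and at 149, 146 and 145 CPM in KO-labelled LM1 tumourspheres. LM9 had 92.6, 86.6 and 97.8 CPM, and KO-labelled LM9 tumourspheres had 140, 145 and 151 CPM. LM9 replicate 1 lay within the range of the other LM9 libraries. The rise was 0.65 ± 0.06 (SE, n = 3 per group, log2 scale, limma-voom adjusted p = 6.48e-07) in LM1 and 0.66 ± 0.06 (adjusted p = 6.46e-07) in LM9, and 0.66 also without LM9 replicate 1.

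Xbp1 (ENSMUSG00000020484; chr11:5520659-5525893, plus strand, protein coding) encodes the transcription factor whose mRNA IRE1alpha splices, and the counts sum its spliced and unspliced forms. It was measured at 250, 260 and 237 CPM in LM1 and at 59.7, 58.8 and 57.4 CPM in KO-labelled LM1 tumourspheres. In LM9 the values were 251, 75.5 and 78.4 CPM, and in KO-labelled LM9 tumourspheres 60.9, 57.5 and 56.8 CPM. A single LM9 library, replicate 1, carried the LM1 level, and the other two were little above the labelled libraries. Xbp1 fell by 2.08 ± 0.35 on the log2 scale in LM1 (SE, n = 3 per group, limma-voom adjusted p = 0.000162). Without LM9 replicate 1, whose spread enters the shared SE, the SE in LM1 was 0.04. In LM9 Xbp1 fell by 0.98 ± 0.35 (adjusted p = 0.0234), and without LM9 replicate 1 by 0.40, which also passed the test. The LM9 call was lost with total-count scaling, at -0.62, in a fit of the LM9 groups alone, at -0.98, and without replicate 2 or 3 of the KO-labelled LM9 libraries, at -0.96 and -0.95.

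Dnajb9 (ENSMUSG00000014905; chr12:44205559-44210326, minus strand, protein coding) encodes ERdj4, a co-chaperone that assists degradation and keeps IRE1 inactive through BiP. Its levels were 36.8, 42.7 and 38.8 CPM in LM1 and 64.7, 63.8 and 55.0 CPM in KO-labelled LM1 tumourspheres. They were 35.4, 28.2 and 32.6 CPM in LM9 and 59.6, 72.2 and 67.3 CPM in KO-labelled LM9 tumourspheres. All labelled libraries lay above all parental libraries, the opposite of Xbp1. The log2 fold change was 0.63 ± 0.11 in LM1 (SE, n = 3 per group, limma-voom adjusted p = 0.000171) and 1.05 ± 0.11 in LM9 (adjusted p = 2.94e-06), or 1.13 without LM9 replicate 1.

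Eif2ak3 (ENSMUSG00000031668; chr6:70844515-70905245, plus strand, protein coding), the gene of the sensor PERK, was the member with the smallest change in LM1. It stood at 47.1, 50.1 and 47.3 CPM in LM1 and at 46.3, 45.4 and 43.6 CPM in KO-labelled LM1 tumourspheres. The libraries of these groups did not overlap, but the log2 fold change of -0.09 ± 0.16 (SE, n = 3 per group) did not pass the limma-voom test (adjusted p = 0.588), and its sign turned to 0.13 with total-count scaling. LM9 had 49.0, 27.1 and 30.6 CPM against 47.1, 44.9 and 46.4 CPM in KO-labelled LM9 tumourspheres, with LM9 replicate 1 above all of the latter. The log2 fold change in LM9 was 0.41 ± 0.16 (adjusted p = 0.033), and 0.68 without LM9 replicate 1. The LM9 call was lost under edgeR's quasi-likelihood test, at 0.37, in a fit of the LM9 groups alone, at 0.41, and when any 1 library of the LM9 groups other than LM9 replicate 1 was left out, at 0.24 to 0.44.

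Atf4 (ENSMUSG00000042406; chr15:80255184-80257541, plus strand, protein coding) encodes the transcription factor whose translation rises when eIF2alpha is phosphorylated. It was at 223, 215 and 214 CPM in LM1 and at 725, 722 and 732 CPM in KO-labelled LM1 tumourspheres. It was at 221, 358 and 352 CPM in LM9 and at 740, 708 and 716 CPM in KO-labelled LM9 tumourspheres. Atf4 had the largest rise of the 10 genes with all libraries, with the labelled libraries far above every parental one. The log2 fold change was 1.74 ± 0.14 in LM1 (SE, n = 3 per group, limma-voom adjusted p = 4.2e-07). The LM9 value was 1.25 ± 0.14 (adjusted p = 7.37e-06), and 1.03 without LM9 replicate 1, where the rise of Dnajb9 was 1.13.

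Ddit3 (ENSMUSG00000025408; chr10:127290774-127296288, plus strand, protein coding) encodes CHOP, a transcription factor induced by ATF4 and linked to cell death under prolonged stress. Its values were 136, 133 and 135 CPM in LM1 and 216, 214 and 223 CPM in KO-labelled LM1 tumourspheres. LM9 had 130, 244 and 242 CPM, and KO-labelled LM9 tumourspheres had 221, 208 and 218 CPM. LM9 replicate 1 lay below and LM9 replicates 2 and 3 above all labelled libraries. Ddit3 rose by 0.69 ± 0.19 in LM1 (SE, n = 3 per group, log2 scale, limma-voom adjusted p = 0.00503). In LM9 its log2 fold change was 0.13 ± 0.19 (adjusted p = 0.518), and without LM9 replicate 1 it was -0.17 and passed the test as a fall. With total-count scaling and all libraries, Ddit3 passed as a rise of 0.49 in LM9.

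The Ddit3 locus also holds a separately listed record for its upstream open reading frame (ENSMUSG00000116429, 105 bases), which had 0.398 to 1.89 CPM and was kept apart from Ddit3. Ddit3 exons overlap those of Mars and Gm4189 on the opposite strand, over 68 and 13 bases.

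Herpud1 (ENSMUSG00000031770; chr8:94386438-94395377, plus strand, protein coding) had the narrowest range of levels. It was measured at 75.0, 72.1 and 71.5 CPM in LM1 and at 56.1, 56.9 and 57.4 CPM in KO-labelled LM1 tumourspheres. In LM9 it was at 76.2, 56.6 and 57.1 CPM, and in KO-labelled LM9 tumourspheres at 55.5, 55.7 and 58.7 CPM. LM9 replicates 2 and 3 lay within the range of the labelled libraries. Herpud1 fell by 0.36 ± 0.10 on the log2 scale in LM1 (SE, n = 3 per group, limma-voom adjusted p = 0.00494), a call lost with total-count scaling, at -0.14. Its log2 fold change in LM9 was -0.15 ± 0.10 (adjusted p = 0.173), and -0.0025 without LM9 replicate 1.

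Levels of different genes were compared as CPM per kilobase of exon. In LM1 Hspa5 was the most abundant member, at 1504 ± 37.4 CPM per kilobase (SD, n = 3), followed by Hsp90b1 at 639 ± 28.5, Atf4 at 92.1 ± 2.12, Ddit3 at 78.7 ± 1.08 and Xbp1 at 76.6 ± 3.57. Ddit3 and Xbp1 did not differ beyond their spread. Below them came Herpud1 at 31.2 ± 0.806, Atf6 at 29.0 ± 0.438, Dnajb9 at 15.5 ± 1.16, Ern1 at 11.4 ± 0.277 and Eif2ak3 at 7.99 ± 0.278. All 3 sensor genes were thus among the 4 lowest in LM1. In KO-labelled LM1 tumourspheres the first 3 were close together, at 323 ± 4.77 CPM per kilobase for Hsp90b1, 318 ± 1.84 for Hspa5 and 308 ± 2.36 for Atf4, and Hsp90b1 and Hspa5 did not differ beyond their spread. Xbp1 at 18.0 ± 0.362 and Ern1 at 17.9 ± 0.232 did not either. KO-labelled LM9 tumourspheres had the same first 4 genes in the same order. In LM9 the order of the first 5 was that of LM1, with larger spreads, such as 41.6 ± 31.0 for Xbp1. The place of Xbp1 in LM9 rests on replicate 1, at 251 CPM against 75.5 and 78.4 CPM in replicates 2 and 3. The next gene in LM9, Atf6, was at 31.9 ± 2.42 CPM per kilobase.

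The log2 ratio of 2 members within a library does not depend on the scaling of that library. The ratio of Ddit3 to Atf4 was -0.71, -0.70 and -0.66 in LM1 and -1.74, -1.76 and -1.71 in KO-labelled LM1 tumourspheres, a difference of -1.05. The difference was -1.12 in LM9. Ddit3 was thus lower relative to Atf4 in every labelled library, in LM9 as in LM1, although its own level in LM9 did not pass the test. The ratio of Dnajb9 to Xbp1 was higher in the labelled libraries by 2.72 in LM1 and by 2.02 in LM9, the latter 1.52 without LM9 replicate 1. The ratio of Herpud1 to Hspa5 was higher by 1.88 and 2.44, and that of Hspa5 to Hsp90b1 differed by -1.26 and -1.49. Hspa5 had 1.30 ± 0.04 (SD, n = 3) log2 units more counts than Hsp90b1 in LM1, and 0.04 ± 0.02 more in KO-labelled LM1 tumourspheres. In none of these 8 comparisons did the groups overlap, but how often ratios of other gene pairs separate was not counted. Of all genes, 81.2% were called in LM1 and 82.3% in LM9. Each of the 8 ratio comparisons gave an exact two-sided permutation p of 0.1, the smallest that 3 against 3 libraries allow. Benjamini-Hochberg adjustment over the 8 left it at 0.1.

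**Figure D3:**
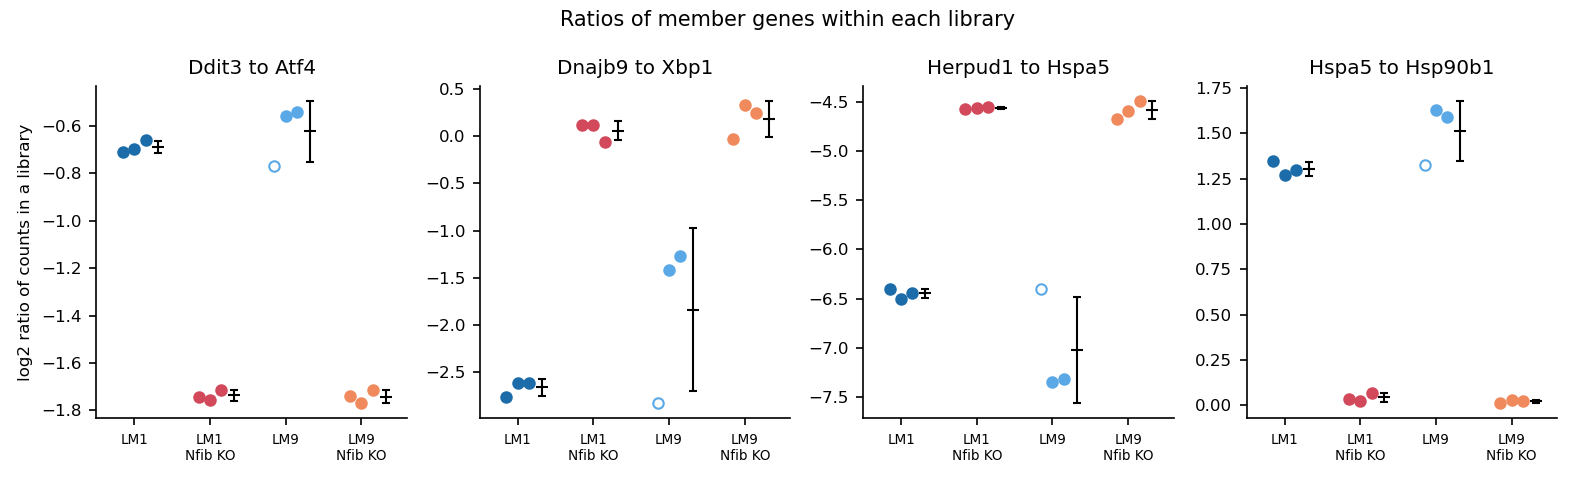
Log2 ratio of the counts of 2 genes in each library, by group, with 1 point per library and the group mean ± SD beside the points. The open symbol is LM9 replicate 1. The ratio of Ddit3 to Atf4 lies between -0.77 and -0.54 in the parental libraries and between -1.77 and -1.71 in those labelled Nfib KO.

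With all libraries, no member was called between LM1 and LM9 in limma-voom, which called 0.0055% of all genes, a single gene. An unadjusted p under 0.05 was found for 7 of 10 members and for 47.7% of all genes. edgeR also called 0 members, and 0.0055% of all genes. DESeq2 called 5 members against 41.1% of all genes with an adjusted p. In limma-voom, total-count scaling called 5 members against 28.8% of all genes, and a filter at a mean of 5 CPM called 5 against 39.4%. Without LM9 replicate 1, 9 of the 10 members differed between LM1 and LM9, all but Ern1, against 65.7% of all genes. Ddit3 was then lower in LM1 than in LM9 by a log2 difference of -0.85 ± 0.04 (SE), Atf4 by -0.71 ± 0.03 and Hspa5 by -0.53 ± 0.02, while Xbp1 was higher in LM1 by 1.69 ± 0.05 and Eif2ak3 by 0.74 ± 0.06. Those values rest on 2 LM9 libraries and were chosen for a separation already seen.

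The changes with the knockout label were also compared between the lines. With all libraries limma-voom, edgeR and DESeq2 each called 0 members, where they called 0%, 0.0055% and 0.487% of all genes. In limma-voom 4 of 10 members and 24.7% of all genes had an unadjusted p under 0.05. The largest such difference was that of Xbp1, -1.11 ± 0.50 (SE, LM1 minus LM9, adjusted p = 0.202). Without LM9 replicate 1, 9 members were called, all but Ern1, against 57.2% of all genes, and the difference for Xbp1 was -1.69 ± 0.06. Between KO-labelled LM1 and KO-labelled LM9 tumourspheres, the 3 tools again called 0 members, and each called 0% of all genes. None of the members and 0.979% of all genes had an unadjusted p under 0.05 in limma-voom. The log2 differences of the members in that comparison lay between -0.12, for Dnajb9, and 0.02, for Ddit3.

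Other genes of the pathway also went in both directions. Of 73 symbols in 6 lists, 71 were tested. In LM1 31 were higher, 30 lower and 10 did not pass, where 81.2% of all genes were called, 43.1% higher and 38.1% lower. In LM9 33 were higher, 29 lower and 9 did not pass, where 82.3% of all genes were called, so the number called is near the background in both lines. Without LM9 replicate 1 the LM9 counts were 36, 31 and 4, against a background of 88.9%. With total-count scaling they were 36 higher and 23 lower in LM1, and 36 higher and 20 lower in LM9. The lists are described by counts and medians, and no list was tested against other genes. Log2 changes of list genes are given in the order LM1, LM9 and LM9 without replicate 1.

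Most ER lumen chaperones and foldases, the proteins that fold secretory cargo, were lower in the KO-labelled libraries, and some were higher. Of 12 genes, 8 were lower and 3 higher in LM1, 9 lower and 2 higher in LM9, and 10 lower and 2 higher in LM9 without replicate 1. The median log2 changes were -0.99, -1.17 and -1.24. Pdia6, a protein disulphide isomerase, had the largest fall, at -2.02, -2.16 and -2.21. Dnajb11, the co-chaperone ERdj3 that works with BiP, had the largest rise, at 1.90, 1.58 and 1.40. P4hb, another disulphide isomerase, rose by 0.45 in LM1, did not pass in LM9 at -0.11, and passed as a fall at -0.39 without LM9 replicate 1.

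An ERSE was found in 4 of the 10 ER lumen genes with a promoter entry, and these did not share a direction. Canx, a lectin chaperone, fell, at -1.06, -1.11 and -1.17, as did Pdia6. Creld2 rose, at 1.11, 0.84 and 0.74. Calr, the lectin chaperone calreticulin, was at -0.03 in LM1, where it did not pass, and fell in LM9, at -0.27 and -0.38. With total-count scaling Calr passed as a rise of 0.19 in LM1 and did not pass in LM9, at 0.08. Ero1l, the ER oxidase that recharges the disulphide isomerases, was at 1089, 1192 and 1143 CPM in LM1 and at 50.4, 52.5 and 51.6 CPM in KO-labelled LM1 tumourspheres. Its log2 change was -4.47 ± 0.09 (SE, n = 3 per group, limma-voom adjusted p = 1.02e-11) in LM1, -4.61 ± 0.09 in LM9 and -4.73 ± 0.04 without LM9 replicate 1.

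In the list of ATF6 proteases and related membrane factors, 5 of 8 genes were higher and 2 lower in each line, also without LM9 replicate 1. Atf6b, the paralog of Atf6, rose, at 2.14, 1.59 and 1.37, opposite to Atf6. Mbtps1, the site-1 protease that cuts ATF6, fell, at -1.14, -0.57 and -0.26. Creb3l2, a related ER membrane transcription factor, fell, at -1.27, -0.62 and -0.31, so that the LM9 value of both was smaller without replicate 1. Mbtps2, the site-2 protease, rose, at 0.94, 1.22 and 1.35. With total-count scaling the list had 5 higher and 0 lower in LM9, where Mbtps1 at -0.21 and Creb3l2 at -0.26 did not pass.

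Among 11 IRE1 partners and genes of the translocation machinery, 6 were higher and 4 lower in LM1, and 7 higher and 3 lower in LM9 with or without replicate 1. With total-count scaling 7 were higher and 3 lower in LM1, and 8 higher and 1 lower in LM9. Sec61a1, the channel subunit through which proteins enter the ER, rose, at 1.24, 1.05 and 0.98. Rtcb, the ligase that joins the Xbp1 exons, rose, at 1.12, 0.98 and 0.94. Map3k5, the kinase ASK1 that acts downstream of IRE1, averaged 57.7 CPM in LM1 and 0.164 CPM in KO-labelled LM1 tumourspheres. It was at 56.2 CPM in LM9 replicate 1, at 39.9 to 43.6 CPM in LM9 replicates 2 and 3, and averaged 0.137 CPM in KO-labelled LM9 tumourspheres.

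For ER-associated degradation, the route that returns misfolded proteins to the cytosol, 4 of 15 genes were higher and 8 lower in LM1. In LM9 6 were higher and 6 lower, and without replicate 1 7 were higher and 6 lower. Edem2, which trims mannose from misfolded glycoproteins, fell, at -1.75, -1.70 and -1.66. Dnajc10, the reductase ERdj5, rose, at 0.56, 1.16 and 1.43. With total-count scaling the split was 6 higher and 5 lower in LM1 and 7 and 5 in LM9.

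The eIF2 list holds the other eIF2alpha kinases, the eIF2 subunits and the eIF2B subunits that recharge eIF2. Of 11 genes 9 were higher and 1 lower in both lines, and 10 were higher and 1 lower in LM9 without replicate 1, with medians of 1.04, 1.24 and 1.07. Eif2b1, the alpha subunit of eIF2B, rose, at 2.27, 1.96 and 1.76. Eif2b2, its beta subunit, was at -0.01 in LM1, where it did not pass, and fell in LM9, at -0.45 and -0.65. The kinases also differed. Eif2ak1, the haem-regulated kinase HRI, rose, at 1.57, 1.87 and 2.03, and Eif2ak2, the kinase PKR, rose, at 0.98, 1.38 and 1.56. Eif2ak4, the amino acid sensor GCN2, fell by 0.61 in LM1, did not pass in LM9 at 0.07, and passed as a rise of 0.45 without LM9 replicate 1. With total-count scaling the list had 0 lower in both lines, and Eif2ak4 in LM1, at -0.38, and Eif2b2 in LM9, at -0.10, did not pass.

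Of 14 outputs of the PERK branch, 4 were higher and 7 lower in LM1, 4 higher and 8 lower in LM9, and 5 higher and 9 lower in LM9 without replicate 1. With total-count scaling 5 were higher and 5 lower in LM1, with a median of 0.04, and 5 higher and 6 lower in LM9. Chac1, a glutathione-degrading enzyme induced by ATF4, had the largest rise, at 3.95, 3.81 and 3.76. Sesn2 rose, at 2.28, 2.31 and 2.44, as did Atf5, at 1.09, 0.91 and 0.93, and Trib3, at 1.27, 0.61 and 0.29. Cebpb, which encodes a dimerisation partner of CHOP, had the largest fall, at -2.72, -3.75 and -4.10.

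The growth arrest gene Gadd45a fell, at -1.93, -2.66 and -3.02. The genes of the pro-apoptotic proteins BIM and PUMA fell too, Bcl2l11 at -1.79, -1.47 and -1.31 and Bbc3 at -0.88, -1.71 and -2.05. Nfe2l2, which encodes the antioxidant factor NRF2, fell, at -1.01, -0.85 and -0.79. Cebpg and Tnfrsf10b also fell, at -0.37 and -0.25 in LM1, calls that were lost in both lines with total-count scaling. The LM1 fall of Tnfrsf10b was also lost with median-ratio factors, at -0.23. Atf3, a stress-induced factor, did not pass in LM1 at 0.61 ± 0.26 (SE, limma-voom adjusted p = 0.0502) or in LM9 at -0.26. It passed as a fall in LM9 at -0.68 without LM9 replicate 1. Its level was 31.8 to 32.4 CPM in LM1 and 47.3 to 50.5 CPM in KO-labelled LM1 tumourspheres. The shared SE also holds the spread of LM9, with replicate 1 at 32.5 CPM and replicates 2 and 3 at 75.7 to 77.4 CPM. In LM1 Atf3 passed as a rise of 0.83 with total-count scaling and of 0.63 with median-ratio factors. TGATGCAA was found in the promoter windows of 2 of the 12 list genes with an entry, Atf3 and Chac1.

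Lists from other compartments were set beside these. Of 12 cytosolic chaperones 8 were higher and 1 lower in LM1, 7 higher and 3 lower in LM9, and 7 higher and 5 lower in LM9 without replicate 1. With total-count scaling the LM9 split was 7 higher and 1 lower. Hsph1, an Hsp110 exchange factor, rose, at 2.75, 1.81 and 1.28. Hspa8, the constitutive Hsc70, fell, at -0.69, -1.34 and -1.65. Of 8 mitochondrial chaperones and proteases 6 were higher and 1 lower in LM1, and 5 higher and 2 lower in LM9 with or without replicate 1. Lonp1, the matrix protease, rose, at 1.36, 1.54 and 1.66, and Clpx fell, at -0.16, -0.25 and -0.28. With total-count scaling 7 of the mitochondrial genes were higher and 0 lower in both lines, and Clpx, at 0.06 and 0.10, did not pass. Its fall in LM1 was also lost with median-ratio factors, at -0.14.

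**Figure D4:**
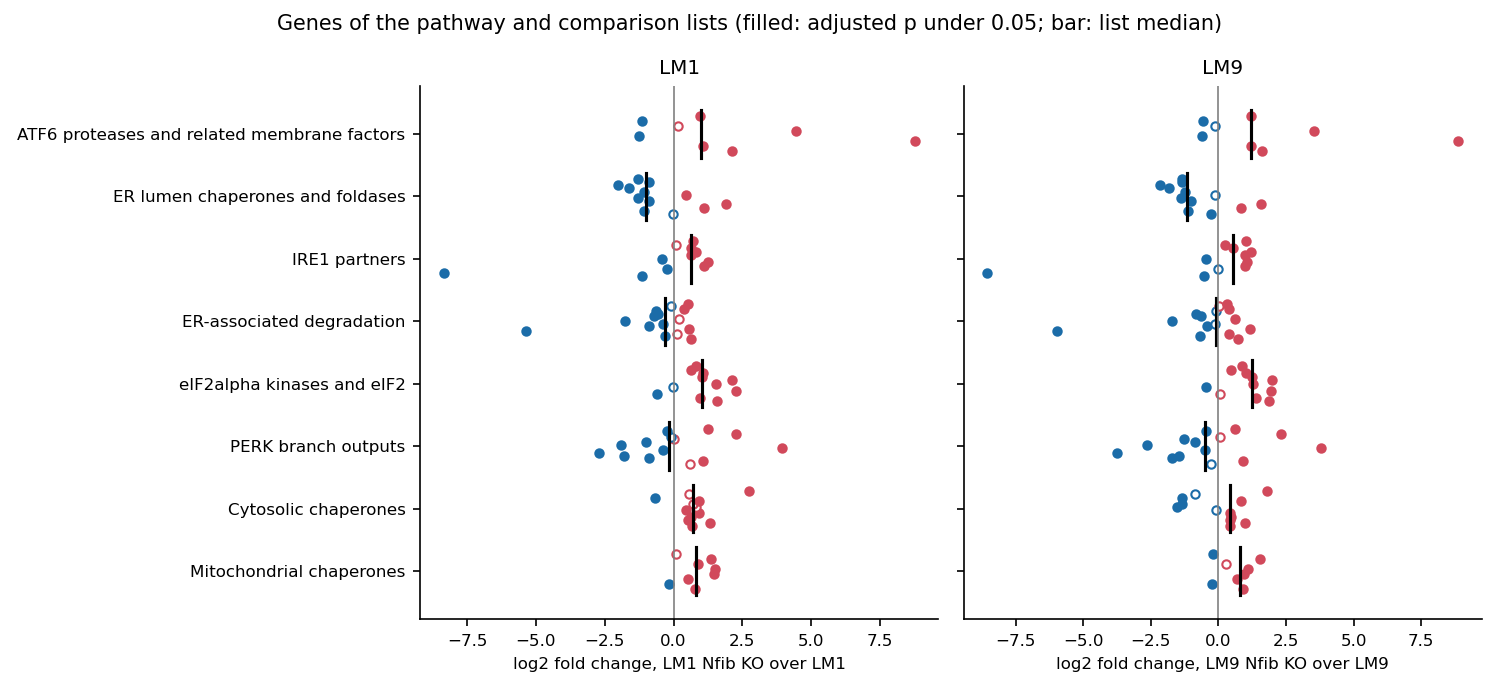
Log2 fold change of each gene of the pathway and comparison lists in the libraries labelled Nfib KO over LM1 (left) or LM9 (right), with 1 point per gene. Red points are above 0 and blue points below it, filled points passed the limma-voom test at an adjusted p under 0.05, and the black bar is the median of the list. The median of the ER lumen chaperones lies at -0.99 and -1.17, and that of the eIF2 list at 1.04 and 1.24.

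The gene most like each member was taken as the one with the smallest root-mean-square difference of mean-centred log2 CPM over the 12 libraries, among 10280 genes with a mean of at least 10 CPM. No such distance was computed for genes at large, so a near gene is a description and not evidence of shared regulation. For Atf6 it was Hyou1, the ER chaperone GRP170, at 0.031 log2 units, and for Atf4 it was Psat1, an enzyme of serine synthesis, at 0.039. It was Ccdc181 for Hspa5 (0.054), Cebpzos for Hsp90b1 (0.032) and Urb2 for Ern1 (0.044). Maml3 was nearest to Xbp1 (0.067) and Tm9sf3 to Dnajb9 (0.051). Ubr3 was nearest to Eif2ak3 (0.039), Acsl5 to Ddit3 (0.032) and Sec24c to Herpud1 (0.039).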

How the data were processed

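Tumoursphere RNA was sequenced from stranded poly(A) libraries. The authors aligned reads with STAR to mm10 and deposited raw read counts per gene, made with QuasR over exons. Identifiers were matched to GENCODE M21 (18268 of 18278). No value column lacked a sample. Members and lists were chosen with earlier results of these data known. Counts were tested with limma-voom (limma 3.58.1, R 4.3.3), 1 mean per group over all 12 libraries, after edgeR's filterByExpr (minimum count 10, minimum total 15), TMM scaling and Benjamini-Hochberg adjustment over all genes tested, at 0.05. CPM are TMM-scaled, and ratios added 0.5 to counts. edgeR 4.0.16 and DESeq2 1.42.0 were alternatives, with other scalings and filters, a replicate block, the compared groups alone and each library left out. Named genes were the 10 members, Nfib, Ero1l, the largest rise and fall per list called alike in both lines (mean of at least 10 CPM), and the gene most like each member. Other genes of the lists and markers were named after their values were seen. The code was tested on simulated data. Nothing says that replicates were separate cultures, so p-values measure the spread between these libraries, which may be technical.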

Additional observations from a re-analysis of the deposited data

How the results depend on the processing

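The members called with all libraries kept their direction under every alternative run in both comparisons with the parental lines. The alternatives had 8 to 9 members called in LM1 and 6 to 9 in LM9. Of all genes, the main fit called 81.2% in LM1 and 82.3% in LM9, and 88.9% were called in LM9 without LM9 replicate 1. The shares of all genes under the other alternatives of these comparisons were not counted. With total-count scaling Eif2ak3 in LM1 went to 0.13 and Herpud1 in LM9 to 0.21. Ddit3, not called in LM9 with all libraries, was called there as a rise of 0.49 with total-count scaling and as a fall, at -0.17, without LM9 replicate 1, the range over libraries left out being -0.17 to 0.29. Between LM1 and LM9, 5 members were called by DESeq2, 5 with total-count scaling and 5 with a mean of at least 5 CPM (of all genes 41.1%, 28.8% and 39.4%). With each library left out 0 to 9 were called, the 9 again without LM9 replicate 1, where 65.7% of all genes were called. For the difference of the changes the leave-one-out range was also 0 to 9, the 9 without LM9 replicate 1, where 57.2% of all genes were called. With total-count scaling Atf6 was at -0.019 and Hsp90b1 at -0.023 in that difference. Ern1, near 0 in both, changed sign: its difference of changes was 0.027 by DESeq2, 0.026 with median-ratio factors, 0.012 with a mean of at least 5 CPM and -0.044 to 0.042 with each library left out, and its LM1 to LM9 difference was -0.013, -0.012 by the first 2 of these and -0.030 to 0.055. Same-numbered libraries did not deviate together (r from -0.16 to 0.09). With 3 libraries per group and LM9 replicate 1 apart from the rest, this cannot exclude that they shared a culture or preparation. With the replicate block, 9 members were called in LM1, 8 in LM9 and 0 in each of the other 3 comparisons, as without it. The share of all genes called with the block was not counted. The cause of these shifts was not tested. No member was limited by depth.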

Other observations

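LM9 replicates 2 and 3 had higher levels of several cytosolic and stress-induced genes than LM9 replicate 1 and the LM1 libraries, and these genes were picked after their values were seen. Hspa1b, an inducible Hsp70, was at 51 to 67.3 CPM in LM1, at 64.2 CPM in LM9 replicate 1 and at 398 to 437 CPM in LM9 replicates 2 and 3. Hspb1, a small heat shock protein, was at 22.5 to 25.7, 24.8 and 95.6 to 111 CPM in the same order. Ppp1r15a, the phosphatase subunit GADD34 that reverses eIF2alpha phosphorylation, was at 65.1 to 72.1, 68.6 and 261 to 268 CPM. In KO-labelled LM9 tumourspheres Ppp1r15a was at 67.4 to 70.7 CPM. Hspa5, Atf4 and Ddit3 were also higher in LM9 replicates 2 and 3, while Xbp1, Eif2ak3 and Herpud1 were lower.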
